A study of Mus musculus with 8 samples.

Results

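GFP-expressing midbrain dopaminergic (mdDA) neurons sorted from the ventral midbrain of E14.5 mouse embryos were compared with tissue of the lateral midbrain dissected at E12.5. The comparison holds 4 of the 8 arrays of the study, 2 for the sorted neurons and 2 for the lateral domain, and was chosen by group label alone. It addresses what a purified population of dopaminergic neurons expresses against midbrain tissue outside the mdDA domain. The sorted neurons came from *Pitx3* GFP/+ embryos of the strain C57BL/6 x 129/Ola (mixed), in which 1 *Pitx3* allele carries GFP, so that GFP marks cells that use the *Pitx3* gene and the other allele is left as the source of *Pitx3* mRNA. The lateral domain came from BAT-gal embryos of the strain B6D2F1 (mixed). BAT-gal is a reporter transgene in which binding sites for LEF1/TCF factors drive b-galactosidase, and the lateral domain was outlined where neither the reporter nor PITX3 was stained. It was cut by laser from fixed, antibody-stained cryosections and pooled from 5 embryos. Sex was not determined in any group, and both arrays of a group are labelled technical replicates. Stage, genotype, strain, isolation (living sorted cells against fixed sections) and the experiment in which the RNA was collected differ together between the groups, so their parts in any difference cannot be told apart. The other 4 arrays, 2 of E13.5 neurons sorted in the same way and 2 of the E12.5 mdDA domain dissected in the same way as the lateral domain, are given beside some values.

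mdDA neurons make dopamine from tyrosine, load it into vesicles, take it up again after release and degrade it, and each step has its own enzyme or transporter. They arise from the floor plate of the midbrain under the control of transcription factors such as FOXA1/2, LMX1A/B and EN1/2, and after their last division they depend on NR4A2 (NURR1) and PITX3. In the adult they form the substantia nigra and the ventral tegmental area, and those of the substantia nigra are lost in Parkinson's disease. The lateral midbrain gives rise to GABAergic and glutamatergic neurons of the tegmentum and tectum, and at E12.5 it still holds dividing progenitors.

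The values are log2 levels per probe set after RMA (robust multi-array average). A difference of 1 is a doubling of the signal, and levels of different genes are not set against each other because each probe set has its own response. Levels on the 4 arrays ran from 1.94 to 13.4, and the median level was 4.39 on both E14.5 arrays and 4.60 on both lateral arrays. Whether a gene was detected was not called, and a difference is uncertain in size where 1 group lies at or below these medians. Many of the largest fold changes below are of this kind, also where it is not said again. Examples are *C130021I20Rik*, *Aldh1a1*, *Cck* and *Chrna6* in the lateral domain and *Hbb-y*, *Nes* and *Top2a* in the sorted neurons. The lateral arrays correlated at 0.983 with each other across probe sets and the E14.5 arrays at 0.966. The E14.5 arrays were no more alike than E14.5 was with E13.5 arrays (0.968 to 0.970), and E14.5 with lateral arrays gave 0.930 to 0.932. With both arrays of a group labelled technical replicates, the p-values measure the spread between these arrays only, and none of them covers the spread between embryos.

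At a false discovery rate below 10% in limma, 1950 of 19938 genes were higher in the sorted neurons (9.78%) and 1445 were lower (7.25%). With a fold change of at least 2 as well, 995 genes were higher (4.99%) and 579 were lower (2.90%). The median difference over all genes was -0.06. The shares of 9.78% and 7.25% are the background for the counts of list members called against the lateral domain below. For counts called against the mdDA domain the shares of all genes were 3.65% higher and 1.91% lower. Over all 35556 probe sets 2904 were higher (8.17%) and 3276 were lower (9.21%), so 47.0% of the calls were rises. Because the medians of the E14.5 arrays lay 0.21 below those of the lateral arrays, this share became 68.5% when the arrays were centred on their medians. Leaving out either lateral array left 0 probe sets past the threshold in limma. The lowest adjusted p was then 0.147 without replicate 1 and 0.144 without replicate 2, and 6309 and 6279 probe sets had an unadjusted p below 0.05. In these fits the spread came from the E14.5 arrays alone, so every call below rests on having both lateral arrays. Without E14.5 replicate 1 the counts were 2825 higher and 2996 lower, and without replicate 2 they were 3259 and 3262. Of 178 genes followed through these fits, 10 lost their call without replicate 1 and 9 without replicate 2, with adjusted p from 0.101 to 0.183. These were *Maoa*, *Pitx3*, *Satb1*, *Kcnj6*, *Neurog2*, *Sst*, *Olig1*, *Cdh5*, *Pdgfrb*, *Btg2*, *Sncg*, *Cox4i1* and *Rpl19*. In bulk RNA fewer cells of a type and less RNA per cell cannot be told apart, so a lower level in the sorted neurons can be either.

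**Figure D1:**
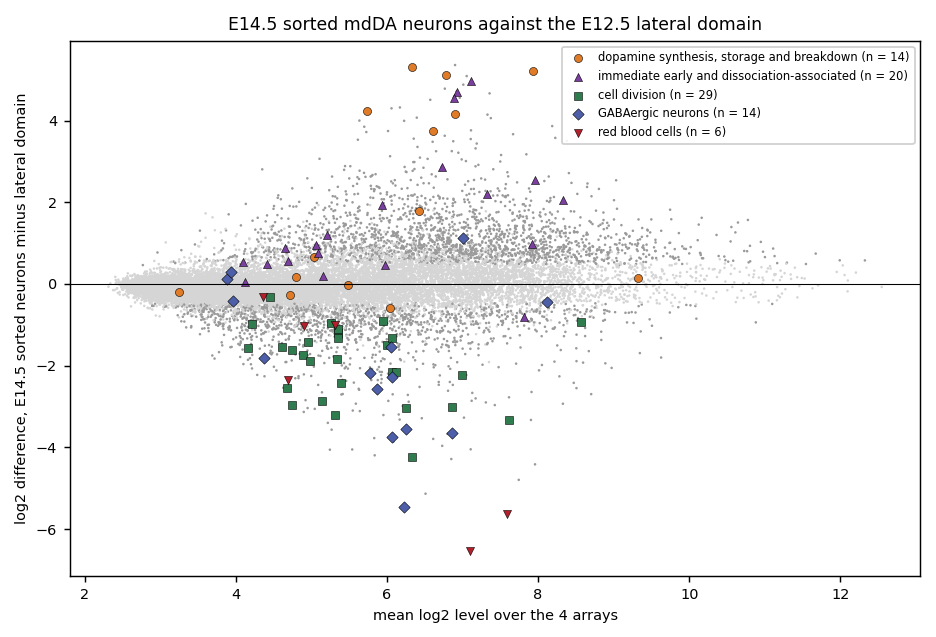
Each point is 1 of 19938 genes, with its mean log2 level over the 4 arrays on the x axis and the log2 difference, E14.5 sorted neurons minus lateral domain, on the y axis. Dark grey points passed the threshold and coloured symbols are members of 5 gene lists, of which the cell division genes all lie below 0 and the embryonic globins *Hbb-y* and *Hba-x* are lowest.

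The genes of dopamine synthesis, storage and uptake were among the highest in the sorted neurons relative to the lateral domain. Of 14 measured genes of dopamine synthesis, storage and breakdown 8 were higher and none was lower, against 9.78% and 7.25% of all genes, with a median difference of 1.22. *Th*, the rate-limiting enzyme of dopamine synthesis, was at 10.47 and 10.61 on the E14.5 arrays and at 5.57 and 5.11 on the lateral arrays. The difference of 5.20 (standard error 0.20) was 36.9-fold, with an adjusted p of 0.00717 in limma. *Ddc*, which makes dopamine from L-DOPA, was at 9.06 and 8.91 in the neurons and at 3.67 and 3.66 in the lateral domain, a 39.8-fold difference with the same adjusted p in limma. *Gch1*, the first enzyme in the synthesis of the cofactor of TH, was at 8.02 and 7.71 against 3.76 and 3.47 (19.0-fold). None of these arrays overlapped between the groups, and the lateral levels of *Ddc* and *Gch1* lay below the array median.

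The vesicular monoamine transporter gene *Slc18a2* was at 9.11 and 8.85 in the neurons and at 4.78 and 4.88 in the lateral domain (17.8-fold). The dopamine transporter gene *Slc6a3* was at 8.50 and 8.46 against 4.82 and 4.66 (13.4-fold). *Aldh1a1*, an aldehyde dehydrogenase that degrades the aldehyde formed from dopamine and also makes retinoic acid, was at 9.31 and 9.38 against 4.07 and 4.39 (34.8-fold). The adjusted p in limma was 0.00717 for each of these transporters and for *Aldh1a1*. *Pcbd1*, which recycles the TH cofactor, differed by 1.80, but its E14.5 arrays were apart (6.79 and 7.86), and *Maoa*, which oxidizes monoamines, differed by 0.65. The other 6 members, among them further enzymes of cofactor synthesis, did not pass, and the largest of their differences was that of *Pts* (-0.60), which passed without E14.5 replicate 2 (-0.88).

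The dissected mdDA domain holds dopaminergic cells of an earlier stage and was isolated like the lateral domain. In the limma test of E14.5 neurons against it, which uses the same E14.5 arrays, 7 of the 14 genes were higher and none was lower, where 3.65% of all genes were higher and 1.91% were lower. Leaving out either mdDA array left 0 probe sets past the threshold of that test too. *Aldh1a1* was at 4.41 and 3.66 in the mdDA domain, overlapping its lateral arrays, at 7.98 and 7.78 in E13.5 neurons and at 9.31 and 9.38 in E14.5 neurons, and the sorted stages did not overlap. *Slc6a3* was at 5.83 and 6.08 in the mdDA domain, 2.53 below the E14.5 neurons (adjusted p = 0.0309, limma). *Th* and *Ddc* lay 1.34 and 1.10 higher in the E14.5 neurons than in the mdDA domain.

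**Figure D2:**
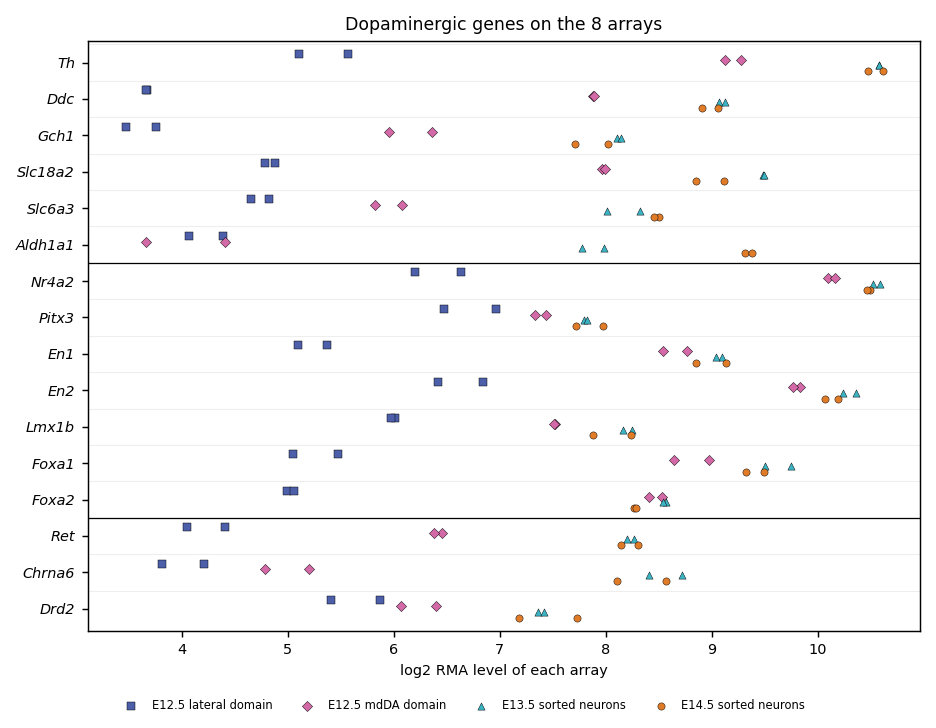
Log2 RMA level (x axis) of 16 genes on each of the 8 arrays, 2 per group, with genes of dopamine synthesis and transport at the top, transcription factors in the middle and receptors at the bottom. The lateral arrays lie to the left of the E14.5 arrays for each gene shown, while the mdDA domain lies close to the sorted neurons for the transcription factors and close to the lateral domain for *Aldh1a1*.

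NR4A2 binds as a monomer to the element AAAGGTCA, and *Ddc*, the dopamine gene with the largest difference, held that string in its promoter in the RefSeq table of the build GRCm38.p6. The 80 bases at chr11:11898175-11898254, on the minus strand and read in the direction of transcription, are shown because they hold the match, in capitals, on the opposite strand and 73 to 66 bases before the annotated start:
Ddc: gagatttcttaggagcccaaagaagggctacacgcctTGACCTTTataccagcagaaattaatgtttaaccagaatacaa
Searched on both strands from 250 bases before to 50 bases after the start, this string was in 1 of 15 promoters of the measured dopamine genes (6.67%, some genes having more than 1 promoter), in 1.28% of the promoters of all measured genes, in 0.858% of those of the genes that were higher and in 1.19% of those of the genes that were lower. A match is a description of the letters and not a binding site.

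Several transcription factors of mdDA neurons were higher in the sorted cells than in the lateral domain, and of these none was called against the mdDA domain. Without *Pitx3*, the gene used for the sort, 7 of 14 measured mdDA transcription factors were higher and 3 were lower. The shares of all genes were 9.78% and 7.25%, and the median difference of the 14 was 0.98. *Nr4a2*, which drives the dopaminergic genes of postmitotic neurons, was at 10.49 and 10.46 in the neurons against 6.20 and 6.63 in the lateral domain (16.7-fold, adjusted p = 0.00954, limma). The engrailed genes *En1* and *En2*, which maintain mdDA neurons, differed by 3.76 and 3.50. *En1* was at 8.85 and 9.14 against 5.09 and 5.37, and *En2* at 10.19 and 10.07 against 6.41 and 6.84. *Lmx1b*, a LIM-homeobox factor of the mdDA lineage, was at 7.88 and 8.24 against 6.01 and 5.97 (4.19-fold). *Foxp2*, a forkhead factor not specific to mdDA neurons, differed by 1.61. *Pitx3*, whose GFP allele served to sort the cells, was at 7.72 and 7.97 against 6.96 and 6.47, and this 2.18-fold difference is a property of the sort and not a finding. With it 8 of 15 factors were higher and 3 were lower, with a median difference of 1.13.

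The 3 factors that were lower are not particular to mdDA neurons, and neither are some that were higher, such as *Foxp2*, *Foxa1* and *Foxa2*. *Otx2*, which marks the forebrain and midbrain and a part of the mdDA neurons, was at 7.69 and 8.15 in the neurons and at 9.91 and 9.81 in the lateral domain, and fell by 1.94. *Ebf1*, a helix-loop-helix factor of differentiating neurons, differed by -1.28, and *Satb1*, a chromatin organizer, by -0.65. *Sox6*, a marker of the substantia nigra lineage, missed the threshold (-0.54, adjusted p = 0.102, limma). *Pbx3*, another factor of these neurons, was at 0.35. When E14.5 neurons were tested against the mdDA domain, *Ebf1* alone of the 15 was called (-0.91), and *Nr4a2*, *En1*, *En2*, *Lmx1b* and *Foxa2* differed by 0.35, 0.34, 0.33, 0.54 and -0.19, none past the threshold.

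Floor plate genes were higher than in the lateral domain or did not pass, and several were lower than in the mdDA domain. Of 11 measured floor plate genes 6 were higher than in the lateral domain and none was lower, against 9.78% and 7.25% of all genes. The median difference was 1.18. The forkhead factor genes *Foxa1* and *Foxa2*, which also belong to the mdDA factors above, were 17.7-fold and 9.51-fold higher. *Foxa1* was at 9.49 and 9.32 against 5.47 and 5.05, and *Foxa2* at 8.27 and 8.29 against 4.99 and 5.06. Genes of secreted signals followed, with *Wnt5a* at 8.10 and 7.35 against 4.77 and 5.14 and *Slit2*, a repellent for axons, at 8.36 and 7.92 against 5.88 and 5.84. *Ntn1* (netrin, 1.72) and *Shh* (sonic hedgehog, 1.18) were higher as well. *Corin*, a protease that marks floor plate cells, was at 4.03 and 4.18 in the neurons and at 4.28 and 4.17 in the lateral domain, while the mdDA domain had 6.24 and 5.91. Relative to the mdDA domain none of the 11 was higher and 5 were lower, namely *Corin* (-1.97), *Slit2* (-1.34), *Spon1* (-1.23), *Msx1* (-1.04) and *Rspo2* (-1.04).

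Several markers of adult mdDA subsets were higher than in the lateral domain, and others did not pass. Of 21 measured subset markers 9 were higher and 2 were lower, against 9.78% and 7.25% of all genes, with a median difference of 0.47. With a minimum of 2-fold, 7 were higher and 0 were lower. *Cck*, which encodes the neuropeptide cholecystokinin, was at 9.54 and 9.66 in the neurons against 4.62 and 4.40 (34.0-fold), and it was 2.54 higher than in the mdDA domain. The calcium-binding proteins calbindin and calretinin were low but higher than in the lateral domain, with *Calb1* at 5.23 and 5.69 against 3.69 and 3.41 and *Calb2* at 5.89 and 5.33 against 3.38 and 3.62. *Drd2*, the dopamine autoreceptor, was at 7.73 and 7.18 against 5.41 and 5.87 (adjusted p = 0.0352, limma). *Nxph4*, a secreted neurexin ligand, differed by 1.89, *Neurod6* by 1.43 and the potassium channel gene *Kcnj6* (GIRK2) by 0.79. The markers that were lower were *Fst* (follistatin, -0.97) and *Sncg* (g-synuclein, -0.82). *Slc17a6*, the vesicular glutamate transporter of many midbrain neurons including some mdDA neurons, was at 8.49 and 8.23 against 8.12 and 7.97 and did not pass (0.31, adjusted p = 0.304, limma).

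Several of the 15 genes with the largest rises are not on the lists of dopaminergic genes. *C130021I20Rik*, annotated by RefSeq as a long noncoding RNA, had the largest rise of all, at 9.61 and 9.56 against 4.19 and 4.25 (41.1-fold, adjusted p = 0.00717, limma). Its other probe set differed by 2.92. *Kcnk9*, a background potassium channel, was at 9.62 and 9.28 against 4.11 and 5.03, and *Cbln1*, a secreted organizer of synapses, at 9.86 and 9.52 against 4.86 and 5.19. From the mdDA domain the E14.5 neurons differed by 0.27 in *C130021I20Rik*, 0.33 in *Kcnk9* and 0.79 in *Cbln1*, none past the threshold.

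*Rit2*, *Scg2*, *Tmem255a* and *1700086L19Rik*, also among the largest rises, were called higher than in the mdDA domain as well. *Rit2*, a small GTPase of neurons, was at 9.40 and 9.08 in the E14.5 neurons, at 6.62 and 6.61 in the mdDA domain and at 4.79 and 4.58 in the lateral domain. *Scg2*, which encodes a protein of dense-core vesicles, was at 8.76 and 8.89, at 6.67 and 6.65, and at 4.34 and 4.30 in the same order. *Tmem255a*, a membrane protein of unclear function, was at 9.40 and 8.91 against 4.51 and 4.24 in the lateral domain and was 1.53 higher than in the mdDA domain. *1700086L19Rik*, a gene without an assigned function, was at 8.15 and 8.27 in the E14.5 neurons, at 6.88 and 6.62 at E13.5, at 3.75 and 4.00 in the mdDA domain and at 4.21 and 3.61 in the lateral domain. Its levels at E13.5 thus lay between those of the E14.5 neurons and both dissected tissues.

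**Figure D3:**
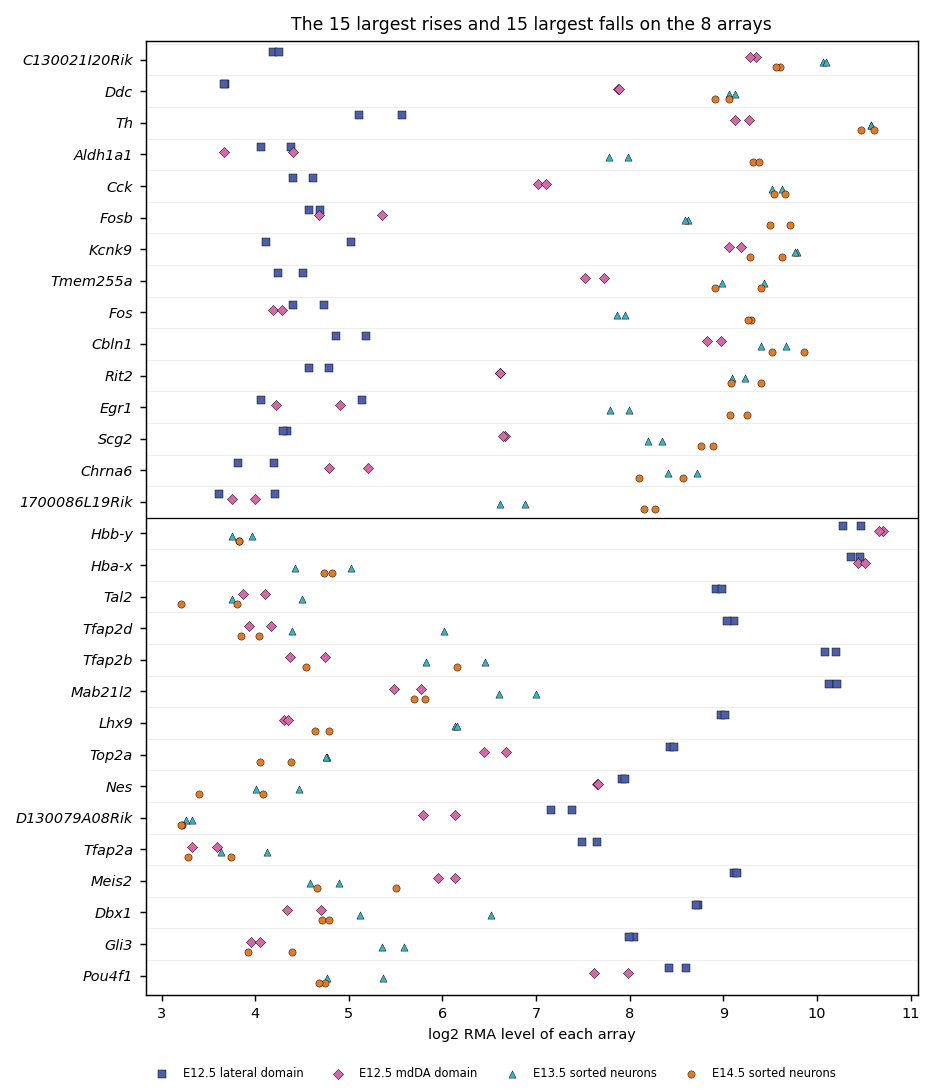
Log2 RMA level (x axis) of the 15 genes with the largest rises (top) and the 15 with the largest falls (bottom) on each of the 8 arrays, 2 per group. The E14.5 and lateral arrays stand apart for every gene shown, by between 3.79 and 6.54 on the log2 scale in the group means.

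More than the background share of pan-neuronal and cytoskeletal genes was higher in the sorted neurons. Of 20 measured pan-neuronal and cytoskeletal genes 12 were higher and none was lower, with a median difference of 0.67. The largest differences were those of *Uchl1*, a neuronal ubiquitin hydrolase, at 10.24 and 10.36 against 7.73 and 7.80, and of *Mapt* (tau) at 8.99 and 8.94 against 6.44 and 6.52. The stathmin genes *Stmn4* and *Stmn3*, which regulate microtubules, differed by 2.21 and 1.82, although the other probe set of *Stmn3* differed by -0.37 and did not pass. *Dcx* (0.10), which neurons express from early on, and *Map2* (0.14) did not pass. The neurofilament gene *Nefl* was higher than in the lateral domain (1.08) and lower than in the mdDA domain (-0.82), and *Nefm* was at 7.76 and 7.84 in the neurons and at 9.26 and 9.47 in the mdDA domain.

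Genes of the synaptic vesicle and of release had the highest median difference of the 30 lists, at 1.32. Of 19 measured members 14 were higher and none was lower. *Syt4*, a synaptotagmin, was at 9.81 and 9.72 against 7.02 and 7.08 (6.56-fold, adjusted p = 0.00954, limma). The vesicle proteins *Sv2a* (2.09) and *Sv2b* (1.84), the SNARE protein *Snap25* (1.77), synapsin *Syn1* (1.75) and *Rab3a* (1.61) rose as well. Against the mdDA domain 8 of the 19 were higher and none was lower, with *Snap25* at 1.10 and *Sv2b* at -0.13, the latter not past the threshold.

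Many ion channel genes were higher than in the lateral domain, and none was called higher than in the mdDA domain. Of 27 measured voltage-gated and potassium channel genes 12 were higher and none was lower, with a median difference of 0.63. After *Kcnk9*, the largest differences were those of *Scn3b*, a sodium channel subunit (8.86 and 8.91 against 5.32 and 5.35), *Cacna1e*, an R-type calcium channel (7.21 and 6.78 against 4.74 and 4.62), and *Kcnd3*, an A-type potassium channel (8.63 and 8.78 against 6.50 and 6.78). Relative to the mdDA domain 2 of the 27 were lower, *Cacna2d1* (-1.17) and *Kcnt2* (-0.76), and the median over the list was 0.16.

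Of 28 measured transmitter receptor genes 14 were higher than in the lateral domain and none was lower, with a median difference of 0.92. The nicotinic subunit gene *Chrna6*, typical of mdDA neurons, was at 8.10 and 8.56 against 3.82 and 4.21 (20.0-fold, adjusted p = 0.00992, limma). *Chrnb3*, whose product assembles with it, was at 6.25 and 6.12 against 3.81 and 3.85. In the mdDA domain *Chrna6* was at 5.20 and 4.79, between its lateral and E14.5 arrays, and *Chrnb3* at 4.01 and 4.03. The glutamate receptor genes *Gria3* (3.49), *Grik3* (2.98), *Grin2b* (2.10) and *Gria2* (1.75) and the GABA receptor gene *Gabra3* (2.21) rose too. Of the 28 genes 5 were higher than in the mdDA domain, *Chrna6*, *Chrnb3*, *Gria3*, *Grik3* and *Drd2*, and none was lower.

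Several but not all receptors for trophic factors of the GDNF family were higher. Of 14 measured trophic receptors and ligands 6 were higher and 1 was lower, against 9.78% and 7.25% of all genes. The median difference was 0.26. *Ret*, the signalling receptor of this family, was at 8.30 and 8.15 in the neurons, at 6.46 and 6.38 in the mdDA domain and at 4.41 and 4.05 in the lateral domain. Its binding partners *Gfra1* (8.55 and 8.71 against 6.76 and 6.48) and *Gfra2* (7.32 and 7.27 against 5.67 and 5.79) were higher as well, while another partner, *Gfra3*, did not pass (-0.04). *Cntfr*, the receptor of ciliary neurotrophic factor, was at 8.47 and 8.36 against 9.31 and 9.31 and was lower, and without E14.5 replicate 2 the list had 3 lower members.

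Axon guidance genes moved in both directions. Of 33 measured members 11 were higher and 8 were lower, against 9.78% and 7.25% of all genes, with a median difference of 0.19. The semaphorin receptor gene *Nrp2* was at 8.06 and 8.11 against 4.65 and 4.80 (10.2-fold), and its partner *Plxna4* at 8.52 and 8.74 against 6.34 and 6.35. The netrin receptor gene *Unc5b* was lower, at 4.50 and 4.17 against 6.12 and 6.16, as were the Eph receptor genes *Epha4* (-1.72) and *Epha3* (-1.48). *Dcc*, the attractive netrin receptor, differed by -0.87. Compared with the mdDA domain 3 of the 33 were higher and 7 were lower, against 3.65% and 1.91% of all genes. *Robo3*, a receptor of commissural axons, was at 4.07 and 4.49 in the neurons, at 6.88 and 7.13 in the mdDA domain and at 5.45 and 4.55 in the lateral domain.

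Of 17 measured neuropeptide genes 2 were higher and 2 were lower, against 9.78% and 7.25% of all genes, with a median difference of -0.06 that became 0.15 with the arrays centred on their medians. Without E14.5 replicate 1 the counts were 4 higher and 1 lower, and without replicate 2 there was 1 lower. Besides *Cck*, *Gal* (galanin) was higher, at 6.29 and 6.09 in the E14.5 neurons, 4.62 and 4.72 at E13.5, 4.40 and 4.40 in the mdDA domain and 4.01 and 4.57 in the lateral domain. *Pnoc* (prepronociceptin) was lower, at 5.17 and 4.97 against 6.34 and 6.54. *Sst* (somatostatin) was lower than in the lateral domain by -0.68 and higher than in the mdDA domain by 1.44. *Cartpt* was at 4.73 and 4.70 in the neurons and at 9.33 and 9.60 in the mdDA domain, and its lateral arrays had 5.32 and 4.35.

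Selector genes of GABAergic midbrain neurons fell, with *Tal2* among the 15 largest falls, whereas the genes of GABA handling were not uniform. Of 14 measured GABAergic genes 1 was higher and 9 were lower than in the lateral domain, against 9.78% and 7.25% of all genes. The median difference was -2.0. *Tal2*, a factor required for the midbrain GABAergic fate, was at 3.81 and 3.21 in the neurons and at 8.92 and 8.99 in the lateral domain (43.7-fold lower, adjusted p = 0.00951, limma). *Gata3*, which acts in the same lineage, was at 4.97 and 5.11 against 8.69 and 8.70, and *Sox14* at 4.64 and 4.32 against 8.17 and 7.87. *Lhx1*, a LIM-homeobox factor, was at 4.31 and 4.07 against 7.97 and 7.89, but the mdDA domain had 7.50 and 7.76. *Tal2* and *Lhx1* lay below the array median in the sorted neurons.

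*Gad1*, the main GABA-synthesizing enzyme gene of developing neurons, was at 5.0 and 4.87 in the neurons against 7.28 and 7.12 in the lateral domain. *Gad2*, which encodes the other synthesizing enzyme, was at 7.97 and 7.83 against 8.45 and 8.23 and did not pass (-0.44, adjusted p = 0.162, limma). *Slc32a1*, the vesicular GABA transporter gene, was at 7.56 and 7.58 against 6.42 and 6.45 and was the 1 member that was higher (1.14, adjusted p = 0.0202, limma). In the mdDA domain *Gad2* had 5.29 and 5.31 and *Slc32a1* 5.13 and 5.06. Both were higher in the E14.5 neurons than in the mdDA domain, by 2.60 and 2.48, and both were also high at E13.5, with *Gad2* at 7.95 and 7.56. The factors *Tal2* (-0.48), *Gata3* (0.32) and *Sox14* (-0.38) did not pass in that comparison, while *Lhx1* (-3.44) and *Lhx5* (-1.89) were lower. Of the 14 genes 2 were thus higher and 2 were lower than in the mdDA domain, against 3.65% and 1.91% of all genes. The part of GABAergic cells in the sorted fraction was not tested.

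Many factors of glutamatergic and dorsal midbrain neurons fell as well. Of 10 measured glutamatergic genes 7 were lower and none was higher, with a median difference of -1.37. *Lhx9* was at 4.78 and 4.63 against 8.97 and 9.02 (19.5-fold lower), *Pou4f1* (BRN3A) at 4.75 and 4.68 against 8.42 and 8.60, *Barhl2* at 4.68 and 4.34 against 7.83 and 7.82, and *Lhx2* at 6.76 and 6.97 against 9.75 and 9.84. *Pou4f1* was at 7.61 and 7.99 in the mdDA domain and was lower in the E14.5 neurons than there too (-3.08). *Lhx2* was at 4.21 and 5.05 in the mdDA domain and thus lay higher in the sorted neurons (2.23).

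Of 15 measured alar plate and dorsal midbrain factors 7 were lower and none was higher, with a median difference of -0.55. *Meis2* was at 4.66 and 5.51 against 9.12 and 9.15, *Dbx1* at 4.71 and 4.79 against 8.72 and 8.70, *Gli3*, the repressor of hedgehog signalling, at 4.39 and 3.92 against 8.04 and 7.99, and *Pax3* at 3.68 and 3.36 against 7.07 and 6.77. The AP-2 factor genes *Tfap2d*, *Tfap2b* and *Tfap2a*, on no list, were among the 15 largest falls with differences of -5.14, -4.80 and -4.05. The E14.5 arrays of *Tfap2b* were apart (4.54 and 6.15), both below the lateral arrays (10.20 and 10.08). *Mab21l2*, a gene expressed in the developing dorsal midbrain, was at 5.69 and 5.81 against 10.13 and 10.21. *Tfap2d*, *Mab21l2*, *Dbx1*, *Gli3* and *Lhx9* were at 6.02 and 4.39, 6.60 and 7.0, 5.12 and 6.52, 5.59 and 5.35, and 6.13 and 6.16 at E13.5, higher than at E14.5, but no gene passed the test of E14.5 against E13.5.

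Genes of dividing cells were lower almost throughout. Of 29 measured cell division genes 27 were lower than in the lateral domain and none was higher, with a median difference of -1.74. *Top2a*, a topoisomerase of replicating cells, was at 4.38 and 4.05 against 8.43 and 8.47 (18.8-fold lower), although its other probe set differed by -1.09 and did not pass. *Mki67*, the gene of the Ki-67 antigen, was at 4.99 and 4.48 against 7.75 and 7.80, *Nusap1*, a spindle protein, at 3.60 and 3.82 against 6.71 and 7.11, and the cyclin gene *Ccnd1* at 5.67 and 6.25 against 9.11 and 9.46. The exceptions were *Mcm5* (-0.33) and *Mcm6* (-0.90), which did not pass. Tested against the mdDA domain, whose *Mki67* arrays had 5.89 and 5.78, 9 of the 29 were lower and none was higher.

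Of 19 measured progenitor and radial glia genes 13 were lower and 1 was higher, with a median difference of -0.98. *Nes* (nestin) was at 4.08 and 3.40 against 7.92 and 7.95 (18.3-fold lower) and had 7.65 and 7.66 in the mdDA domain. *Sox2* was at 5.83 and 6.04 against 8.25 and 8.08, and *Sox9* at 5.51 and 5.76 against 7.95 and 8.12. *Ednrb*, an endothelin receptor of progenitors, and *Nr2e1*, an orphan nuclear receptor, differed by -2.86 and -2.47. The member that was higher was *Aldoc* (2.07), which encodes a glycolytic aldolase of the brain. Of 12 measured proneural genes 5 were lower and none was higher (median difference -0.32), with *Neurod4* at -3.06, *Neurog1* at -2.69, *Neurod1* at -2.62, *Insm1* at -1.17 and *Neurog2* at -0.62.

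The NOTCH pathway keeps progenitors from differentiating. Of its 19 measured genes 10 were lower and 2 were higher (median difference -1.11), against 7.25% and 9.78% of all genes. The receptor gene *Notch1* was at 5.20 and 5.51 against 7.47 and 7.41. *Mfng*, which modifies NOTCH receptors, was at 4.18 and 4.50 against 7.01 and 6.81, and the feedback gene *Nrarp* at 4.09 and 4.81 against 6.45 and 6.59. *Dlk1*, an atypical ligand of this pathway found in mdDA neurons, went the other way, at 10.09 and 10.15 against 6.60 and 5.91 (14.6-fold, adjusted p = 0.0122, limma), with 8.25 and 7.73 in the mdDA domain. The ligand gene *Jag2* was the other that was higher (0.88).

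Of 29 measured WNT/b-catenin genes 12 were lower and 1 was higher, against 7.25% and 9.78% of all genes. The median difference was -0.37. The transcriptional effector *Lef1* was at 4.96 and 4.68 in the neurons, at 5.75 and 5.79 in the mdDA domain and at 8.11 and 8.11 in the lateral domain (9.77-fold lower than in the lateral domain, adjusted p = 0.00954, limma). Its relatives *Tcf7l1* and *Tcf7l2* differed by -2.21 and -1.89. The receptor gene *Fzd1* was at 5.03 and 5.94 against 8.05 and 7.71, and *Fzd2* differed by -2.24. The secreted antagonist genes *Sfrp1* (-2.31) and *Sfrp2* (-1.92) and the target *Ccnd1* fell too. The target gene *Axin2* was at 5.95 and 6.32 against 6.10 and 6.11 and did not pass. The gene that was higher, *Wnt5a*, encodes a ligand known mainly for signalling without b-catenin. *Lef1* was higher in the lateral domain, outlined by the absence of the b-galactosidase reporter, than in the sorted neurons or the mdDA domain. The sorted neurons came from *Pitx3* GFP/+ and not BAT-gal embryos, so they cannot be placed by reporter staining. From the dissected arrays the paper also reports *Lef1*, *Tcf7l1* and *Tcf7l2* as higher in the lateral than in the mdDA domain. Within the ventral midbrain it describes LEF1 protein mostly in reporter-positive progenitors, and the fall of LEF1 towards the zone of TH and PITX3 neurons.

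Immediate early genes, which respond within minutes to stimulation and to cell dissociation, were high in the sorted neurons. Of 20 measured members of this list 11 were higher and 1 was lower than in the lateral domain, with a median difference of 0.96. *Fosb* was at 9.50 and 9.71 against 4.69 and 4.58 (31.3-fold), *Fos* at 9.29 and 9.26 against 4.73 and 4.40 (26.2-fold), and *Egr1* at 9.25 and 9.07 against 5.14 and 4.06 (23.6-fold). *Nr4a1*, an orphan nuclear receptor related to *Nr4a2*, was at 8.17 and 8.15 against 5.55 and 5.03. *Jun* (2.54), *Klf6* (2.20), *Dusp1* (2.07) and *Klf4* (1.92) rose as well, and *Btg2*, which restrains division, was lower (-0.81). The mdDA domain, dissected like the lateral domain, had 4.19 and 4.29 for *Fos*, and the E13.5 neurons, sorted like the E14.5 neurons, had 7.95 and 7.86. Against the mdDA domain 10 of the 20 were higher and none was lower. The summed linear level of the 20 genes was 4851 to 4944 on the E14.5 arrays, 3154 to 3172 on the E13.5 arrays, 1171 to 1244 on the lateral arrays and 980 to 1071 on the mdDA arrays. The sum differed between sorted and dissected arrays, where isolation, stage, strain and genotype cannot be told apart. It also differed between the stages, both sorted from *Pitx3* GFP/+ embryos, although no gene passed the test of E14.5 against E13.5. The cause of either difference was not tested.

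Most red blood cell genes were lower in the sorted neurons than in the lateral domain. Of 6 measured red blood cell genes 5 were lower and none was higher, with a median difference of -1.70. *Hbb-y*, the embryonic b-globin, was at 3.83 and 3.83 in the E14.5 neurons and at 10.28 and 10.47 in the lateral domain, the largest fall of all genes (93.3-fold, adjusted p = 0.00717, limma). *Hba-x*, the embryonic a-globin, was at 4.73 and 4.82 against 10.46 and 10.37, and *Hbb-bh1*, a further embryonic globin, at 3.48 and 3.54 against 5.68 and 6.06. The mdDA domain had 10.70 and 10.67 for *Hbb-y* and 10.44 and 10.51 for *Hba-x*, like the lateral domain. Of 14 endothelial and pericyte genes 3 were lower and none was higher (median difference -0.54), namely *Emcn* (-1.07), *Cdh5* (-1.01) and *Pdgfrb* (-0.56). The summed linear level of the 14 genes, not centred, was 249 to 279 on the E14.5 arrays and 362 to 375 on the lateral arrays. With centred arrays the list median was -0.33, and 12 of the 14 lay below the array medians in the neurons.

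Lists of other cell types had few members past the threshold or none. None of 12 microglial genes passed (median difference 0.13), with a summed level of 343 to 364 on the E14.5 arrays and 291 to 333 on the lateral arrays. *C1qb*, a complement subunit made by microglia, was at 6.71 on E14.5 replicate 1, at 5.25 on replicate 2 and at 5.13 and 5.16 on the lateral arrays. Without replicate 2 it differed by 1.57 and passed (adjusted p = 0.0308, limma). *Cx3cr1*, a chemokine receptor of microglia, was at 5.31 and 5.34 against 5.90 and 5.18. None of 10 meningeal genes passed (median difference -0.19), and the summed level was 155 to 160 against 176 to 177. With the arrays centred on their medians the list median was 0.015. Of the 10 genes 7 lay below the array medians in the neurons and 8 in the lateral domain. The summed levels given here were not centred. Of 7 oligodendrocyte lineage genes *Olig1* alone was higher (0.83), with a median of -0.14 over the list and summed levels of 169 to 186 against 177 to 184. None of 9 motor and cholinergic and none of 6 serotonergic and noradrenergic genes passed, with medians of 0.04 and -0.01. *Slc18a3*, the vesicular acetylcholine transporter gene, was at 3.89 and 4.41 against 4.27 and 3.87, and *Slc6a4*, the serotonin transporter gene, at 3.69 and 3.75 against 3.67 and 3.67. The *Slc6a4* values all lay below the array medians. In both groups the mean levels of all 9 and all 6 genes of these lists did so too. The lack of calls among them therefore does not show equal levels. The label of dopaminergic neurons is borne out by the levels of *Th*, *Ddc*, *Slc18a2* and *Slc6a3* above. The part of other cells in the results was not tested.

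**Figure D4:**
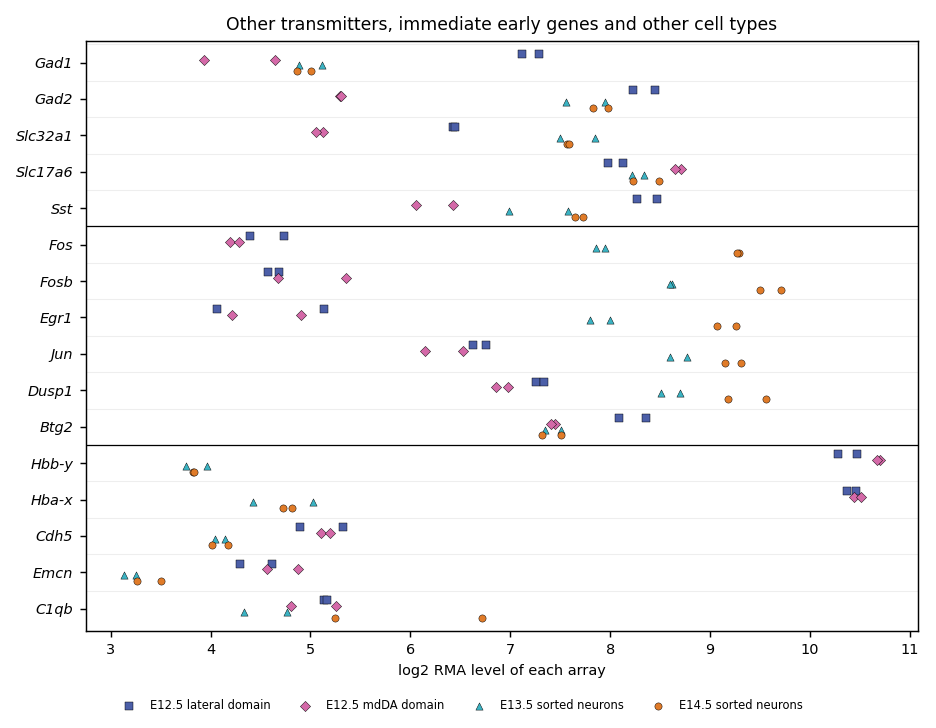
Log2 RMA level (x axis) of genes of other transmitters (top), immediate early genes (middle) and genes of blood, vessels and microglia (bottom) on each of the 8 arrays, 2 per group. The immediate early genes except *Btg2* are high on the sorted arrays and the globins on the dissected arrays, with *Fos* at 9.26 or above on the E14.5 arrays and at 4.73 or below on the lateral arrays.

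The E14.5 neurons were compared with E13.5 neurons, which were sorted in the same way. In limma no probe set passed the threshold between these stages (0 genes called, 0.00% of all genes; lowest adjusted p = 0.605), and 2156 probe sets, 6.06%, had an unadjusted p below 0.05. A fit over all 8 arrays called 9 higher and 11 lower, and a test without calls does not show that the stages were alike. Among the genes above, *Aldh1a1* was 1.47 and *Gal* 1.52 higher at E14.5, *Fos* 1.37, *Fosb* 0.99 and *Egr1* 1.27 higher, and *Lhx9*, *Gli3* and *Gata3* differed by -1.44, -1.31 and -1.12. Smaller differences were those of the dopaminergic genes *Th* (-0.03), *Ddc* (-0.11), *Ret* (-0.01), *Nr4a2* (-0.07) and *Slc6a3* (0.32), while *Slc18a2* (-0.50) and *Gch1* (-0.26) were somewhat lower at E14.5, neither past the threshold.

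**Figure D5:**
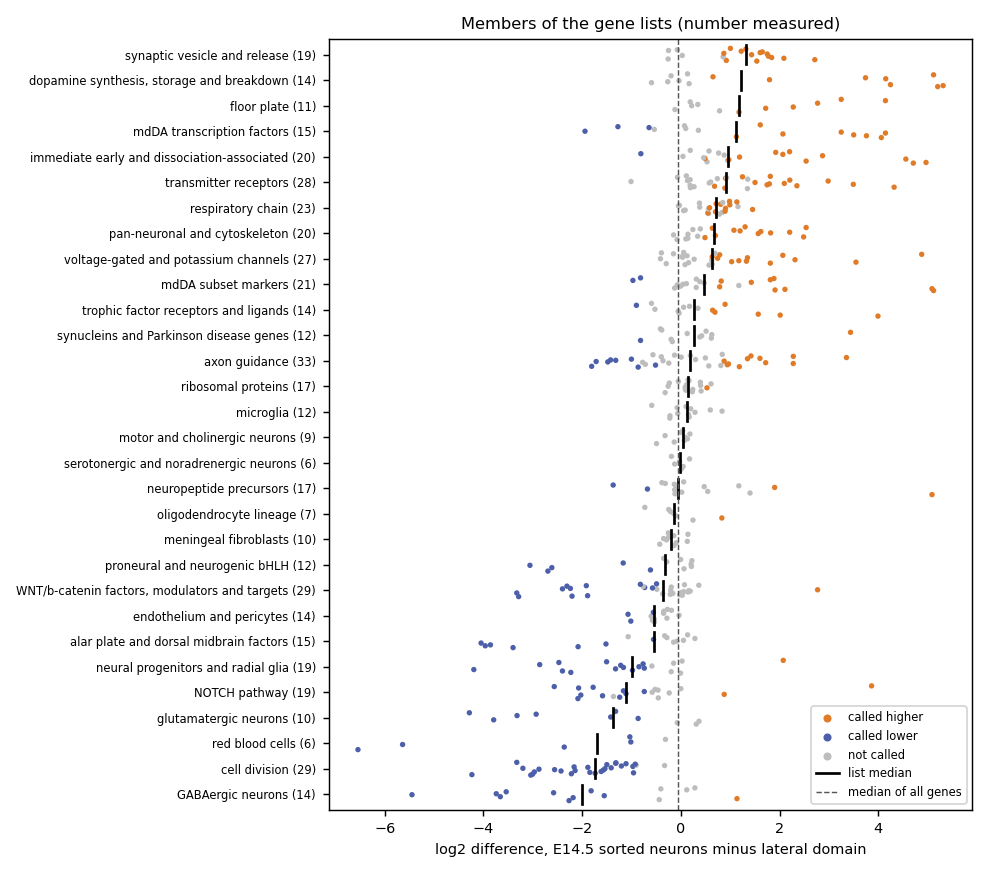
Log2 difference, E14.5 sorted neurons minus lateral domain (x axis), of each measured member of 30 gene lists, ordered by the list median (black bar), with the number measured in parentheses. Orange points were called higher, blue points lower and grey points did not pass, and the dashed line is the median of all genes (-0.06). Synaptic vesicle genes (1.32) and dopamine genes (1.22) have the highest medians, and GABAergic genes (-2.0) and cell division genes (-1.74) the lowest.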

How the data were processed

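Arrays were grouped by the sample labels. Per the submitters' processing notes and the methods, the values the authors deposited for Mouse Gene 1.0 ST arrays are log2 levels of probe sets, made with RMA (background correction, sketch-quantile normalization, summary of probes) in Affymetrix Expression Console 1.2. The sorted neurons were first reported in an earlier study, and whether their arrays were normalized together with those of dissected tissue is not given in the sources used here. Nor is a genome build, so probe sets carry no positions. The number of arrays limits the precision, and no depth applies.

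The deposited values were used without a filter. The platform annotation gave 1 gene symbol to 21789 of the 35556 probe sets, several to 1621, and in the table used none to 12146. RefSeq gene identifiers matched 21698 of the single symbols, and 0 symbols were updated. The probe set with the highest mean over the 8 arrays represents each of the 999 genes (of 19938) that have several. Some genes of the lists, among them *Lmx1a*, had no such probe set and were not analysed here.

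Groups were compared with limma 3.58.1 (R 4.3.3; lmFit and eBayes with default settings, no block) on the 4 arrays of a comparison, with Benjamini-Hochberg adjustment across the 35556 probe sets and a false discovery rate below 10% as the threshold. The test was checked on simulated data. The methods name a paired limma test for the dissected domains. Here replicate numbers are those of technical replicates in separate experiments, the deviations of same-numbered arrays correlated at 0.0028, and the block was run as an alternative. Fold changes and p-values were computed from the deposited log2 values. The 30 gene lists and the members named were chosen with earlier results of these data known. Named were the 15 largest rises and 15 largest falls among genes past the threshold without overlap between groups, up to 4 called members of each list with the largest differences (or its 2 members of highest level if fewer than 2 passed) and 18 genes of the main cell types. A further 60 list members were named after their values were seen. Alternatives were a replicate block, a fit over all 8 arrays, a repeat of quantile normalization, array centring, removal of dim probe sets, limma's trend and robust settings, stricter thresholds, adjustment over single-symbol probe sets, and each array left out. Those of the comparisons with E13.5 neurons and with the mdDA domain were chosen after seeing the data. Promoters were searched in Python 3.11.15 with pandas 2.3.3 and plots drawn with matplotlib 3.10.9 and numpy 2.4.6.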

Additional observations from a re-analysis of the deposited data

How the results depend on the processing

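The main counts were 2904 probe sets higher and 3276 lower in the E14.5 neurons than in the lateral domain. A replicate block gave 1916 and 2057, centring of the arrays 4431 and 2033, a false discovery rate below 5% 1681 and 1657, and a minimum of 2-fold 1504 and 1588. Repeated quantile normalization, all 8 arrays in the fit, the trend and robust options, removal of dim probe sets and single-symbol probe sets moved neither count by over 1.5 times. Leaving out 1 array gave 0 to 3259 higher and 0 to 3262 lower, with 0 in both directions without either lateral array. Replicate numbers do not pair these arrays (the deviations of same-numbered arrays correlated at 0.0028), so calls lost under the block are not read as weaker effects. Further fits were chosen after seeing the data. Against the mdDA domain, where 1113 were higher and 1226 lower, the block gave 117 and 199, all 8 arrays 2448 and 2621 and centring 2457 and 870, and leaving out 1 array gave 0 to 1459 and 0 to 1379. Between E14.5 and E13.5 neurons, where 0 were called, all 8 arrays gave 9 higher and 11 lower. The block, the 8-array fit, limma's trend and robust settings, removal of dim probe sets, the thresholds and the single-symbol adjustment leave log2 differences unchanged. No direction could therefore change under them. Of the 178 genes followed, those that changed direction under other settings had not passed. With quantile normalization the log2 differences became 0.0735 for *Isl2*, 0.0774 for *Htr1a*, 0.0536 for *Cartpt*, 0.0893 for *Corin* and 0.176 for *Gfra3*. With centring they became 0.0753 for *Isl2*, 0.0843 for *Htr1a*, 0.0688 for *Col1a1*, 0.0663 for *Sox10*, 0.158 for *Rps15*, 0.0908 for *Cartpt*, 0.0893 for *Corin*, 0.174 for *Gfra3* and 0.0118 for *Lrrk2*. With 1 array left out they ranged from -0.17 to 0.34 for *Slc18a3*, from -0.44 to 0.17 for *Isl2*, from -0.58 to 0.14 for *Cx3cr1*, from -0.29 to 0.0055 for *Sox10*, from -0.16 to 0.22 for *Axin2*, from -0.19 to 0.12 for *Gfra3* and from -0.60 to 0.37 for *Cartpt*. Centring also turned the list medians of neuropeptides (-0.06 to 0.15), meningeal genes (-0.19 to 0.02), oligodendrocyte genes (-0.14 to 0.07) and serotonergic and noradrenergic genes (-0.01 to 0.20), and repeated quantile normalization turned those of neuropeptides (0.15), oligodendrocyte genes (0.0022) and serotonergic and noradrenergic genes (0.14). The cause of these changes was not tested beyond the 0.21 gap in array medians that centring removes. The number of arrays, 2 in each group, limits the precision.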

Other observations

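Genes of energy metabolism and of Parkinson's disease were measured as further lists. Of 23 measured respiratory chain genes 11 were higher in the E14.5 neurons than in the lateral domain and none was lower, where 9.78% of all genes were higher, and the median difference was 0.71. The count of 11 became 6 with repeated quantile normalization or the replicate block, 5 at a false discovery rate below 5%, 2 with a minimum of 2-fold, and 17 with all 8 arrays in the fit or adjustment over single-symbol probe sets. *Ndufv1*, a subunit of complex I, was at 7.67 and 7.43 in the neurons and at 6.37 and 5.83 in the lateral domain. The ATP synthase genes *Atp5a1* and *Atp5b* were at 9.49 and 9.58 against 8.30 and 8.50 and at 9.73 and 9.90 against 8.90 and 8.76. *Cox4i1*, a subunit of cytochrome oxidase, was at 10.14 and 9.49 against 8.73 and 8.92 and passed narrowly (adjusted p = 0.0977, limma). Against the mdDA domain 7 of the 23 were higher and none was lower. Of 17 ribosomal protein genes, a further set of genes that most cells use, 1 was higher (*Rpl19*, 0.53) and none was lower, with a median difference of 0.15. Without either E14.5 array or with repeated quantile normalization 0 were higher, and with centred arrays 4. Most genes of this list have several probe sets, some of which passed where the probe set used did not.

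Of 12 measured synuclein and Parkinson's disease genes 1 was higher and 1 was lower, with a median difference of 0.26. These counts lie near the shares of all genes, 9.78% higher and 7.25% lower. Centring of the arrays gave 4 higher and 0 lower. *Dnajc6*, which encodes auxilin, a protein that strips the clathrin coat from vesicles, was at 8.91 and 8.90 in the neurons, at 7.94 and 7.81 in the mdDA domain and at 5.15 and 5.79 in the lateral domain (10.8-fold higher than in the lateral domain, adjusted p = 0.0124, limma). *Sncg* was at 5.66 and 5.98 against 6.56 and 6.71 and was lower. *Lrrk2* (-0.20), *Park7* (0.62), *Pink1* (0.38), *Vps35* (0.42) and *Atp13a2* (0.63) did not pass, though *Park7* did without E14.5 replicate 2 (0.83).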
